A study of Mus musculus with 10 samples.

Results

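Notch signalling was examined in the whole brain of mouse pups at postnatal day 3 through 10 Notch pathway genes, chosen by name and found by Ensembl identifier in a table of 18444 genes. All 10 genes were in the table. They comprise the receptors Notch1 and Notch2, the ligands Dll1, Dll3, Jag1 and Jag2, the receptor-modifying enzyme Lfng, the DNA-binding factor Rbpj and the target genes Hey1 and Hey2. Poly-A mRNA was sequenced from 10 male C57BL/6N pups, 5 heterozygous for Arid1b (HT) and 5 wild type (WT), with the replicates of the labels taken as 1 pup each. In HT pups 1 allele of Arid1b, which encodes a subunit of the BAF chromatin remodelling complex, carries a CRISPR/Cas9 deletion at exon 5 in every cell of the body, and neither group received a drug. The line (C57BL/6N-Arid1b em1Tcp) is 1 edited line, and pups came from heterozygous fathers and wild-type mothers. Litters were not named for the samples used here.

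Notch receptors are membrane proteins that are activated by ligands on a neighbouring cell. A ligand of the Delta-like or Jagged family pulls on the receptor, proteases release its intracellular domain, and this domain joins RBPJ in the nucleus to switch on repressor genes of the Hes and Hey families. In the developing brain this keeps radial glia from becoming neurons, and it takes part in the formation of glia and blood vessels.

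The values are normalised read counts, that is, estimated reads of a gene divided by the size factor of its library. From the steps among small values, 1 read was estimated to stand for 0.899 to 1.14 normalised counts. At that estimate only 9.65% (WT 5) to 36.3% (HT 1) of small values were whole reads, so it is approximate. Totals lay between 27.2 and 29.03 M normalised counts per library, which 24.96 to 31.1 M estimated reads gave. Arid1b itself averaged 3335 ± 203 normalised counts over the 5 WT libraries and 2101 ± 343 over the 5 HT libraries (SD), with no overlap between genotypes (two-sided exact permutation test, p = 0.00794, the smallest that 5 against 5 allows). The library HT 4 stood apart from the others on the first principal component (53.9, against -23.4 to 9.66), which held 22.5% of the variance, and its deviations fell with transcript length (Spearman rho across genes of -0.496, against -0.176 to 0.337 in the others). Results that rest on HT 4 are therefore given with and without it. The defining markers of neurons, radial glia, astrocytes, the oligodendrocyte lineage, endothelial cells and microglia were all detected.

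The DNA letters bound by RBPJ can be seen at a few of these genes. RBPJ recognises GTGGGAA, and the shorter core TGGGAA, which lies within it, is common by chance. Promoter windows of 300 bases (250 before and 50 after the start of transcription, RefSeq, GRCm38.p6) were at hand for 9 of the 10 genes, with 11 windows. Hey1 had no window and was not searched. On either strand GTGGGAA was in 6.38% of 32851 windows of this kind and TGGGAA in 25.6%. Among the 9 genes with a window GTGGGAA was found at 2, Hey2 and Lfng, and TGGGAA at 3, these and Rbpj. Hes5, a classical Notch target that is not one of the 10 genes, held GTGGGAA at 2 places. The windows of Hes6 and Nrarp, further genes listed as targets, held neither GTGGGAA nor TGGGAA. The upstream 225 bases of the Hey2, Lfng and Hes5 windows are shown because they place the letters in front of genes whose levels are compared here. Capitals mark GTGGGAA or TGGGAA on the strand of the gene and their reverse complements (TTCCCAC or TTCCCA).
Hey2: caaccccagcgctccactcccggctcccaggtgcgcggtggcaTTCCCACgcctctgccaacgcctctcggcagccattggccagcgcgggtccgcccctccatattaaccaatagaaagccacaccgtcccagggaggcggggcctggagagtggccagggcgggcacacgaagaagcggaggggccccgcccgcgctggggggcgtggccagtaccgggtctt
Lfng: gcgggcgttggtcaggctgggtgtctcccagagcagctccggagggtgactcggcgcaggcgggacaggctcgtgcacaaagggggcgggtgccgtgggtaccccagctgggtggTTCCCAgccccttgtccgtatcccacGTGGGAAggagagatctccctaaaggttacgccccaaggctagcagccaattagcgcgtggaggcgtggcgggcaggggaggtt
Hes5: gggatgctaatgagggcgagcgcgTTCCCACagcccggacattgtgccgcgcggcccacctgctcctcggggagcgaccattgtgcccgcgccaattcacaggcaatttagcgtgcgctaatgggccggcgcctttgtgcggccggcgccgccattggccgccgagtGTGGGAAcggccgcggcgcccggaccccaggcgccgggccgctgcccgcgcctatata
The Hey2 stretch is chr10:30842809-30843033 on the minus strand, and its match begins 207 bases upstream of the start. A further match of Hey2 begins 4 bases before the start, at chr10:30842781-30842787, outside the stretch shown. The Lfng stretch is chr5:140607091-140607315 on the plus strand, with TGGGAA (reverse complement) 135 bases and GTGGGAA 109 bases upstream. The Hes5 stretch is chr4:154960673-154960897 on the plus strand, with matches 226 and 83 bases upstream. These matches describe the letters only, since binding was not measured.

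The 10 genes differed in level far more than the genotypes did. Levels were compared between genes as normalised read counts per kb of the longest coding transcript, as a mean over the 10 libraries. Jag2 was highest at 412 ± 20.5 per kb (SD, n = 10), above 71.4% of the tested genes that have a transcript length. Rbpj (282 ± 23.4), Hey1 (265 ± 22.7) and Lfng (205 ± 42.1 per kb) followed. Notch1 stood at 159 ± 19.8, Dll1 at 132 ± 19.99, Notch2 at 88.9 ± 12.5, Jag1 at 70.1 ± 9.26, Dll3 at 64.9 ± 8.37 and Hey2 at 54.9 ± 5.27 per kb, the last above 29.3% of genes. Only Jag2 and Rbpj were neighbours in this order whose ranges did not overlap. Within single libraries the order was steadier: Hey1 was above Lfng, Lfng above Notch1, Notch1 above Dll1 and Dll1 above Notch2 in 10 of 10 libraries, whereas Rbpj was above Hey1 in 8, Notch2 above Jag1 in 9, Jag1 above Dll3 in 7 and Dll3 above Hey2 in 8. Among the 4 ligands of the 10 genes Jag2 had the highest level per kb, although Dner (3329 per kb) and Cntn1 (2642 per kb), neuronal membrane proteins listed as further ligands, were higher. Notch1 exceeded Notch2 per kb in each library.

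**Figure D1:**
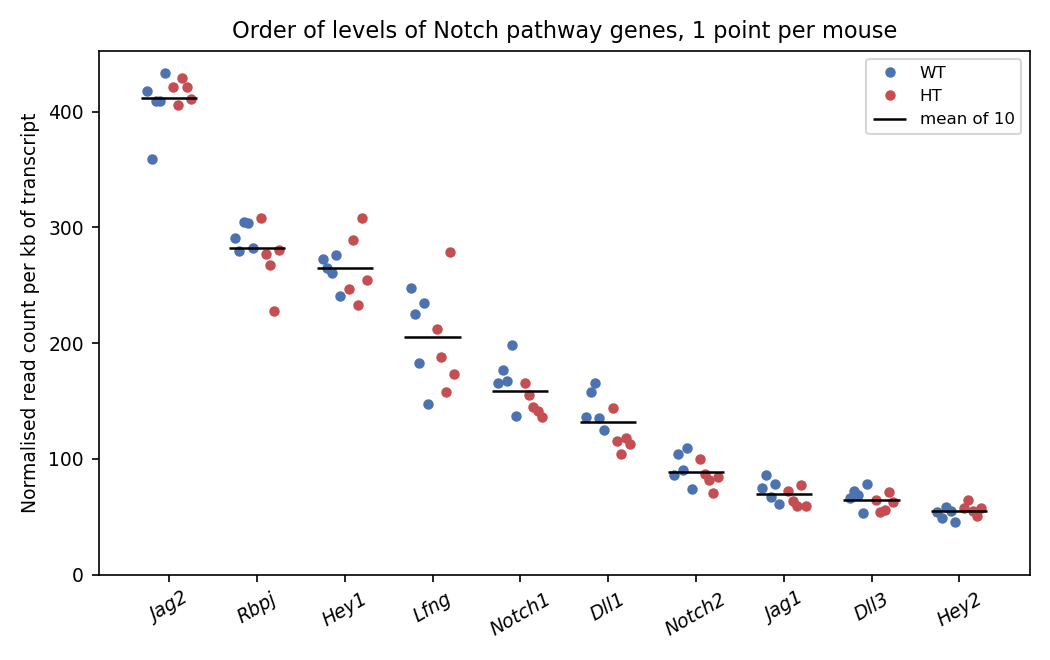
Normalised read count per kb of the longest coding transcript (vertical axis) for the 10 Notch pathway genes in order of their mean, with 1 point per mouse (blue, WT, red, HT) and a line at the mean of 10 libraries. Jag2 (412 per kb) stands clear of the other genes, and Hey2 (54.9 per kb) is lowest.

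To ask whether loss of 1 Arid1b allele changed these genes, HT was compared with WT by limma on log2(value + 1) over 17020 genes. None of the 10 genes passed an adjusted p of 0.05 (Benjamini-Hochberg over all genes tested), and all 10 overlapped between genotypes. In the same fit 0 of 17020 genes passed (0.0%), and at an unadjusted p under 0.05 there were 580 (3.41%), of which 329 were lower in HT (1.93%) and 251 higher (1.47%). At that unadjusted threshold 1 of the 10 genes was found, Dll1, which was lower in HT. The adjusted p of each of the 10 genes was 0.9997. On the log2 scale 7 of the 10 genes lay below 0 and 3 above, with a median of -0.12, where 53.6% of all genes lay below 0, with a median of -0.0074. Without HT 4, 50.4% of all genes lay below 0, 2 genes passed the adjusted threshold (0.0118%) and 1429 had an unadjusted p under 0.05 (8.4%), among them again Dll1 alone of the 10. In these bulk samples fewer cells of a type and less RNA per cell cannot be told apart.

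The receptors had lower means in HT without passing the test. Notch1, the main receptor of radial glia (chr2:26457903-26516663, minus strand), had 1571, 1474, 1377, 1339 and 1293 normalised counts in HT 1 to HT 5 and 1569, 1679, 1584, 1881 and 1305 in WT 1 to WT 5. Only HT 5 lay below the lowest WT library, and 3 WT libraries lay above every HT library. The means of 1411 ± 112 in HT and 1604 ± 208 in WT gave a log2 fold change of -0.18 ± 0.088 (SE, limma, unadjusted p = 0.0637), with an exact permutation p of 0.103. Notch2, the second receptor (chr3:98013527-98150361, plus strand), had 1049, 911, 855, 746 and 883 in HT and 908, 1094, 954, 1154 and 782 in WT. The groups overlapped widely, with HT 4 lowest and WT 4 highest. Its log2 fold change was -0.13, with a 95% interval of -0.37 to 0.10, and -0.072 without HT 4. Of the Notch1 transcript 9.40% of 31-base words also occur in other genes, most often the antisense gene 0610009E02Rik, which had 12.97 to 36.8 normalised counts. Of the Notch2 words 4.28% occur in other genes, most often Gm42820, which overlaps Notch2 on the same strand. The strand setting of the counting is not given in the sources used here, so reads of Notch1 and 0610009E02Rik could not be told apart there. For Notch2 and Gm42820 no strand setting would separate such reads.

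Among the ligands, Dll1 had the largest difference of the 10 genes. Dll1 (chr17:15367354-15376872, minus strand), a ligand made by newly forming neurons that activates Notch in neighbouring progenitors, had 517, 415, 374, 424 and 405 normalised counts in HT 1 to HT 5. In WT 1 to WT 5 it had 487, 564, 594, 484 and 447. In HT 4 of 5 libraries lay below the lowest WT library, while HT 1 lay within the WT range. The mean was 427 ± 53.6 in HT and 515 ± 61.4 in WT, 82.9% of WT. The log2 fold change was -0.27 ± 0.10 (SE, 95% interval -0.49 to -0.053), with an unadjusted limma p of 0.0186 and an exact permutation p of 0.0476. The unadjusted limma p was under 0.05 in 20 of 22 fits, all but those without HT 3 and without WT 3. It did not pass adjustment in any of the 22, where the lowest adjusted limma p was 0.520. Leaving out 1 library at a time moved it between -0.34 (without HT 1) and -0.22 (without WT 3). Dll1 lies 10.02 Mb from Arid1b on the same chromosome. Of its 31-base words 17.9% also occur in other genes, most often the antisense gene A930024N18Rik, for which no row was found among the 18444 genes.

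The other ligands overlapped more. Dll3, a Delta-like protein that acts within the cell rather than as an activator, had 170, 143, 146, 188 and 165 normalised counts in HT and 173, 190, 180, 139.7 and 205 in WT. WT held both the lowest and the highest library, and the log2 fold change was -0.13 (95% interval -0.39 to 0.13). Jag1, a ligand of vessels and of neural progenitors, had 406, 355, 334, 433 and 334 in HT and 421, 486, 378, 440 and 344 in WT. HT 3 and HT 5 were below the lowest WT library, and the log2 fold change was -0.15 (95% interval -0.38 to 0.081) and -0.21 without HT 4. Jag2, the second Jagged ligand, had 2151, 2070, 2188, 2151 and 2096 in HT and 2131, 1833, 2090, 2088 and 2211 in WT. Its HT libraries lay within the WT range. At a log2 fold change of 0.044 (95% interval -0.073 to 0.16), Jag2 had the narrowest interval of the 10 genes, or 0.951 to 1.12 as a fold. Without WT 2, its lowest library, the log2 fold change was 0.00078. Dll3 lies at chr7:28293553-28302238, Jag1 at chr2:137081456-137116644 and Jag2 at chr12:112907819-112929776, all on the minus strand.

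**Figure D2:**
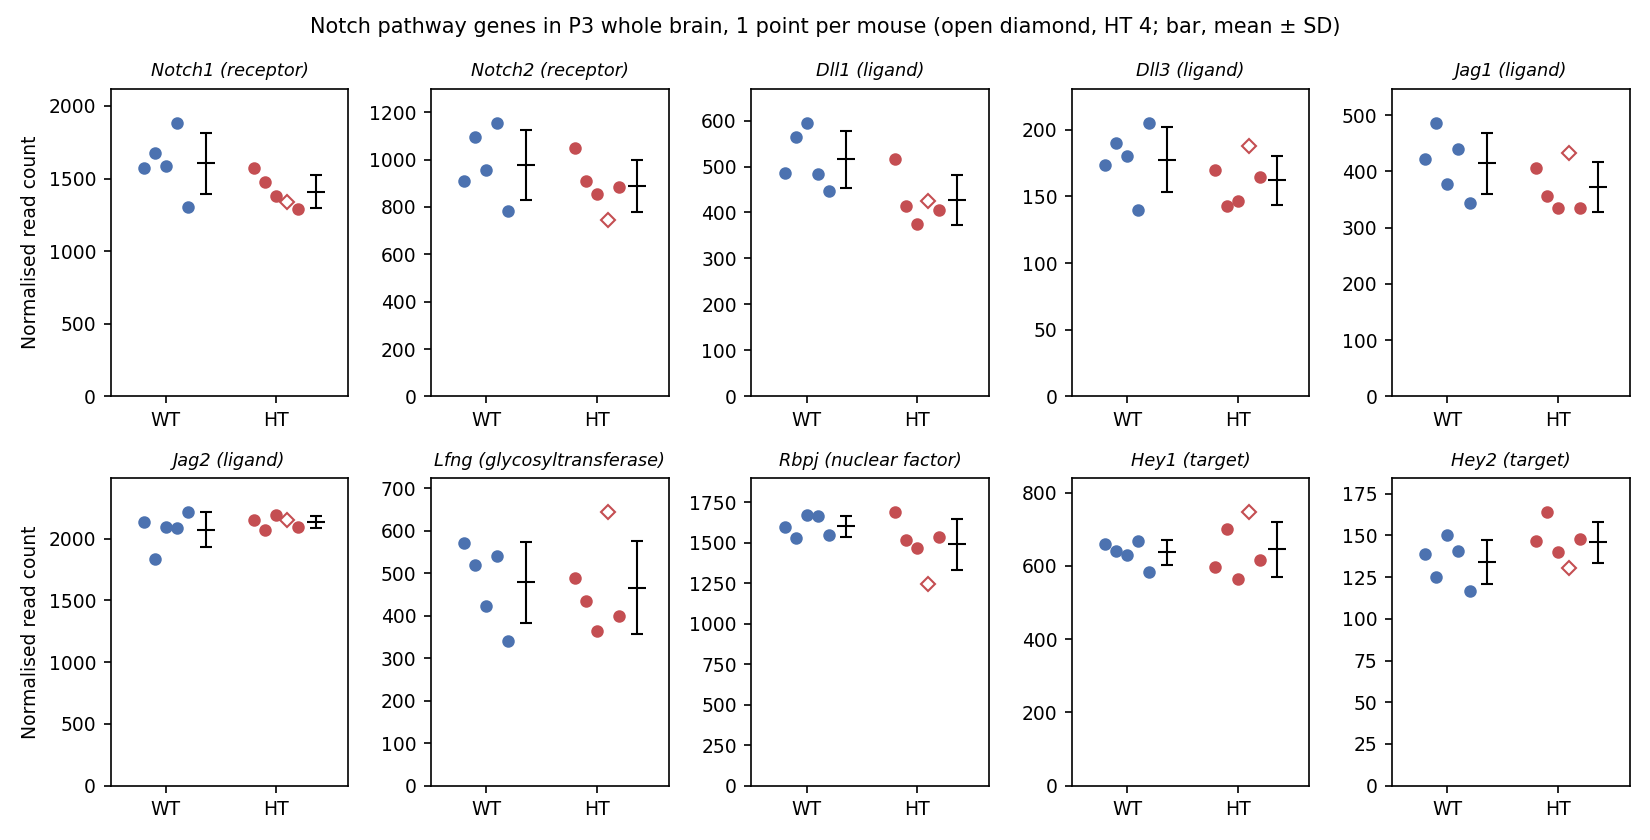
Normalised read count (vertical axes, from 0) of each of the 10 Notch pathway genes in WT (blue) and HT (red), with 1 point per mouse, HT 4 as an open diamond and mean ± SD as a bar. Dll1 in 4 of 5 HT libraries lies below the WT range, and for Lfng and Hey1 the highest library is HT 4.

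Lfng and Rbpj each depended on HT 4. Lfng (chr5:140607320-140615545, plus strand) encodes a Fringe glycosyltransferase that adds a sugar to Notch and shifts its preference from Jagged to Delta-like ligands. It had 490, 434, 363, 643 and 399 normalised counts in HT and 571, 519, 422, 541 and 341 in WT. HT 4 was the highest library of all and WT 5 the lowest. Lfng varied most between mice, with an SD of 23.5% of the mean in HT and 19.9% in WT, and its log2 fold change was -0.043 (95% interval -0.41 to 0.32) with all libraries and -0.17 without HT 4. Rbpj (chr5:53466152-53657362, plus strand), through which all Notch receptors signal, had 1688, 1518, 1465, 1249 and 1536 in HT and 1595, 1531, 1670, 1668 and 1546 in WT. HT 3, HT 4 and HT 2 lay below the lowest WT library, and HT 1 above the highest. The log2 fold change was -0.11 (95% interval -0.26 to 0.046), and -0.047 without HT 4. Of its 31-base words 11.8% are shared with other genes, most often the pseudogene Rbpj-ps3.

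The target genes Hey1 and Hey2 had means above those of WT without passing the test. Hey1 (chr3:8663359-8667256, minus strand), a repressor switched on by Notch, had 598, 700, 565, 746 and 616 normalised counts in HT and 661, 641, 631, 668 and 584 in WT. HT libraries lay on both sides of the WT range, and the log2 fold change was 0.012 (95% interval -0.16 to 0.19), or -0.042 without HT 4. Hey2 (chr10:30832359-30842801, minus strand), a related repressor with a role in vessels, had 147, 164, 140.3, 130.3 and 148 in HT and 139, 125, 150.02, 141 and 117 in WT. Only HT 2 lay above the WT range. The log2 fold change was 0.12 (95% interval -0.11 to 0.35), the highest of the 10 genes. At the estimated value of 1 read, counting the reads of Hey2 alone would give an SD of 11.98 in HT and 11.7 in WT. Its SD between mice (12.3 and 13.2) was close to this estimate of counting error. The SD of Lfng was 5.11 times its own estimate of that kind in HT and 4.31 times in WT.

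**Figure D3:**
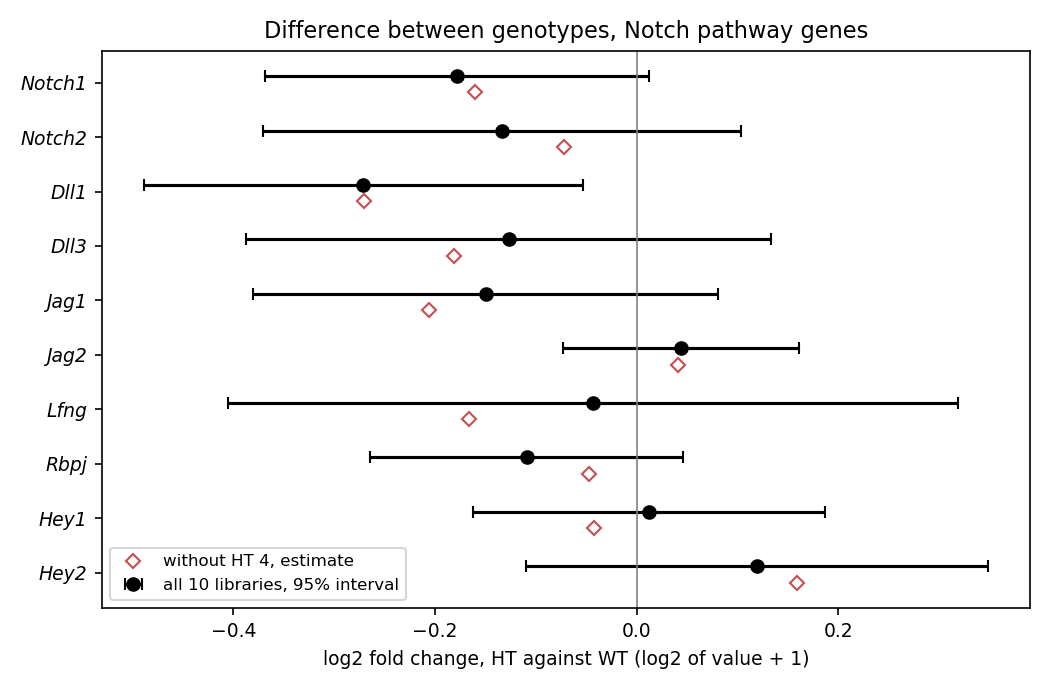
Log2 fold change of HT against WT (horizontal axis) for the 10 Notch pathway genes, with points and 95% intervals from limma on all 10 libraries and open diamonds for the estimate without HT 4. The interval of Dll1 (-0.49 to -0.053) lies below 0 without adjustment, the other intervals include 0, and the diamond of Hey1 lies on the other side of 0.

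Ratios between related genes in the same library do not depend on library scaling, and 4 were compared by a two-sided exact permutation test with adjustment over the 4. The ratio of Notch1 to Notch2 counts had a mean of 1.64 ± 0.071 over WT libraries and 1.60 ± 0.13 over HT libraries (SD, n = 5, exact p = 0.460). In HT and WT, in that order, Dll1 to Dll3 was 2.64 ± 0.323 and 2.93 ± 0.496 (exact p = 0.341), Jag1 to Jag2 was 0.175 ± 0.0201 and 0.202 ± 0.0408 (exact p = 0.222), and Hey1 to Hey2 was 4.43 ± 0.712 and 4.74 ± 0.346 (exact p = 0.333). No ratio passed, with adjusted exact p between 0.455 and 0.460. For Hey1 to Hey2, HT 4 had the highest ratio of all libraries (5.69) while the other 4 HT libraries lay below the mean of WT. The log2 difference of this ratio was -0.11 with all libraries and -0.20 without HT 4 (exact p = 0.0238, adjusted p = 0.0952).

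Pairs of the 10 genes were also compared across mice. Genotype means were taken out of the log2 values, and all 45 pairs were compared over 10 libraries with an exact permutation test within genotype (14400 arrangements). The p values were two-sided and adjusted over the 45 pairs, and 2 pairs passed by Pearson's r. Notch1 and Notch2 had r = 0.895 (permutation p = 0.0016, adjusted p = 0.0359) and Spearman's rho = 0.867 (permutation p = 0.00368, adjusted p = 0.0891). Leaving out HT 5 and WT 4, the libraries farthest from the median of Notch1, gave r = 0.932, and leaving out HT 4 gave 0.937. Jag1 and Lfng had r = 0.896 (permutation p = 0.00146, adjusted p = 0.0359) and rho = 0.855 (permutation p = 0.00396, adjusted p = 0.0891). Without HT 3 and WT 2 their r was 0.951, and without HT 4 it was 0.867. No pair passed by rho, and several pairs had r below 0, down to -0.656 for Dll3 and Hey2. Both pairs share library, depth, size factor and the cell makeup of each sample. After the trend of each library on transcript length and GC content was removed, r was 0.891 for Notch1 and Notch2 and 0.825 for Jag1 and Lfng, and 5 pairs passed, all among Notch1, Notch2, Jag1 and Lfng. With that trend removed and HT 4 left out as well no pair passed. With any 1 library left out 0 or 1 pair passed, while r ran from 0.829 (without WT 5) to 0.940 (without HT 5) for Notch1 and Notch2 and from 0.847 (without WT 5) to 0.958 (without WT 2) for Jag1 and Lfng. Without HT 1 the pair that passed was Hey1 and Lfng (r = 0.860).

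**Figure D4:**
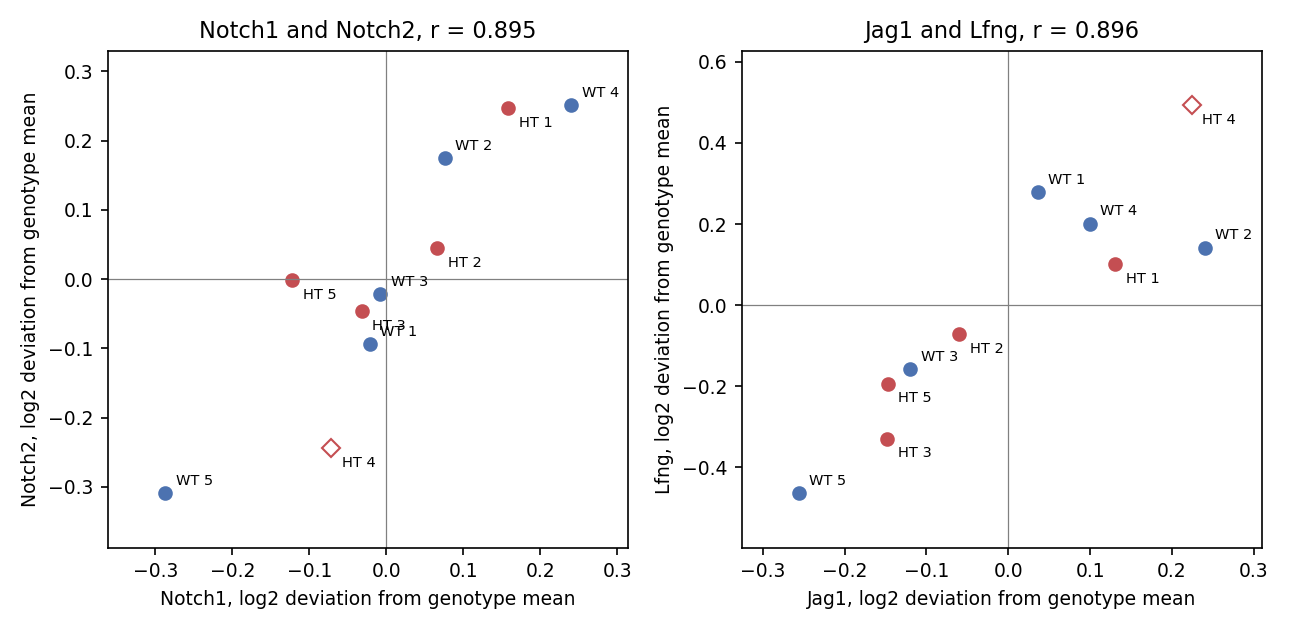
Log2 deviation of each library from its genotype mean for Notch1 against Notch2 (left) and Jag1 against Lfng (right), with 1 labelled point per mouse (blue, WT, red, HT, open diamond, HT 4). Points rise together in both panels (r = 0.895 and 0.896), with WT 5 at the low end of each.

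By the same measure the gene most like each of the 10, among 12825 genes with a mean of at least 100 normalised counts, was sought as a description with no test. For Notch1 it was Tnc, which encodes the matrix protein tenascin C made by radial glia and astrocytes (r = 0.969 over 10 libraries). For Jag1 it was Slc22a6, an organic anion transporter (r = 0.985), for Rbpj Slc38a6 (r = 0.990), for Lfng Vwa5a (r = 0.956), for Hey1 Ppp1r1b, a phosphoprotein of striatal neurons (r = 0.949), and for Dll1 Slc25a32 (r = 0.941). For Notch2 it was Dnah12 (r = 0.953), for Dll3 Ptcd2 (r = 0.972), for Jag2 Tango6 (r = 0.962) and for Hey2 Rttn (r = 0.917). Each is the highest of many correlations over few libraries.

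Markers of cell types were compared beside these genes, as the mean log2 deviation of a marker list in each library. None of 120 relations between the 10 genes and 12 lists passed by Pearson's r after adjustment, and 21 had an unadjusted permutation p under 0.05. Among these, Jag1 and Lfng both rose with endothelial (r = 0.840 and 0.847), astrocyte (0.808 and 0.890) and microglia markers (0.850 and 0.737). They also rose with mural cell markers (0.763 and 0.683) and with radial glia and progenitor markers (0.641 and 0.742). Both fell with neuron markers (-0.686 and -0.751). Notch1, Notch2 and Hey2 fell with erythroid markers (-0.881, -0.757 and -0.772). Adjusted permutation p of these relations ran from 0.103 to 0.285. The part of cell makeup in the correlated pairs was not tested. By rank 1 relation passed, that of Lfng with astrocyte markers (rho = 0.976, permutation p = 0.000278, adjusted p = 0.0333, with r = 0.890, permutation p = 0.00257, adjusted p = 0.103). Its r was 0.633 without HT 4 and WT 5. Between genotypes, the summed level of the 5 choroid plexus markers did not overlap (6598 to 9462 normalised counts in HT and 10017 to 13657 in WT), with Ttr the highest marker and Folr1 the lowest in mean. All 5 had a lower mean in HT, 4 with an unadjusted limma p under 0.05 and 0 after adjustment. Summed levels of the other 11 lists overlapped between genotypes and no marker of any list was at 0. Of these 11, only radial glia and progenitors held markers with an unadjusted limma p under 0.05, 2 of 8, beside 3.41% of all genes. None passed after adjustment, and in that list 6 markers had a log2 fold change below 0 and 2 above. The relation of Dll1 to the choroid plexus list was r = -0.275 (permutation p = 0.479, adjusted p = 0.810) and rho = -0.430 (permutation p = 0.265, adjusted p = 0.598), and r = 0.204 without WT 4 and WT 5. Before adjustment Dll1 varied with the markers of meninges and fibroblasts (r = 0.722, permutation p = 0.0267, adjusted p = 0.232, and rho = 0.758, permutation p = 0.0249, adjusted p = 0.203), with r = 0.427 without WT 2 and WT 3. The same held for mural cell markers (r = 0.712, permutation p = 0.0356, adjusted p = 0.252, and rho = 0.758, permutation p = 0.0192, adjusted p = 0.203), with r = 0.477 without HT 3 and WT 5. Neither passed adjustment.

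The wider pathway was read from the same fit. Of 71 further Notch pathway genes listed by role, 70 were in the table and tested, all but the proneural gene Neurog1, whose row was not found. None passed the adjusted threshold, 23 lay above 0 and 47 below, and the median log2 fold change was -0.019. At an unadjusted p under 0.05 there were 4, or 5.71%, beside 3.41% of all genes. Higher in HT was 1 gene, Numb, an inhibitor of Notch that is shared unequally between daughter cells, at 426 ± 43.1 in HT and 364 ± 39.2 in WT (log2 fold change 0.22, exact permutation p = 0.0397). The other 3 were lower. Maml2 and Maml1 encode Mastermind coactivators that bind the complex of Notch and RBPJ, and Furin encodes the protease that cuts the receptor on its way to the surface. Maml2 averaged 422 ± 26.01 in HT and 507 ± 69.6 in WT (log2 fold change -0.25, exact permutation p = 0.0397). Maml1 had 332.7 to 418 normalised counts in HT and 425 to 431 in WT, the only one of the 70 that did not overlap, where 0.629% of all genes did not (log2 fold change -0.16, exact permutation p = 0.00794, and -0.11 without HT 4). Furin averaged 1138 ± 51.5 and 1236 ± 57.7 (log2 fold change -0.12, exact permutation p = 0.0397). The unadjusted limma p stayed under 0.05 in 20 of 22 fits for Maml2, 16 for Numb, 14 for Furin and 11 for Maml1, and for Furin and Maml1 leaving out HT 4 took it above 0.05.

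Counts by role include those of the 10 genes that belong to the role, and values are log2 fold changes. The further receptors were Notch3, of mural cells, at -0.10, and Notch4, of endothelium, at 0.13 with all libraries and -0.084 without HT 4. The vascular ligand Dll4 stood at 0.0035, and the ligand list, with the Dlk, Dner and contactin genes, ran from Dll1 to Dlk1 (0.081). Of the glycosyltransferases 7 of 8 lay below 0, from Gxylt2 (-0.15) to Mfng (0.043), a list in which Rfng was at -0.00059. Without HT 4 Mfng lay at -0.043. Of the receptor proteases 8 of 10 lay below 0, from Aph1c (-0.25) to Psenen (0.055), though Psenen lay at -0.033 without HT 4. Of the words of Aph1c 25.3% are shared with other genes, most often Aph1b. The list of endocytosis and ubiquitin ligases ran from Dtx2 (-0.084) to Numb, with 9 of 14 below 0, and the nuclear factors from Maml2 to Bend6 (0.078), with 12 of 16 below 0.

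Of the 12 genes listed as targets 8 lay above 0 and 4 below, where 53.6% of all genes lay below 0. Their median was 0.019, or -0.044 without HT 4. The list, drawn up from general knowledge, held Hey1, Hey2, Heyl, Hes1, Hes5, Hes6, Nrarp, Id1, Id3, Sox9, Fabp7 and Ccnd1. Not all of these are specific to Notch. Hes5, a Notch target of radial glia, averaged 405 ± 67.1 normalised counts in HT and 440.0 ± 37.4 in WT, a log2 fold change of -0.13. HT 4 was its highest library at 505, and without it the value was -0.21 (limma, adjusted p = 0.562). Without HT 5 the value was -0.047. Of the Hes5 words 25.7% are shared with other genes, most often the antisense gene Gm20421. Hes1 stood at -0.040 and Heyl, a target in mural cells, at 0.13, the highest of the list. The proneural factors, which drive neuronal fate and are repressed by Hes proteins, had 6 of 6 tested genes below 0, from Neurod4 (-0.42) to Neurod1 (-0.15), with a median of -0.21, and none had an unadjusted p under 0.05. Without HT 4 that median was -0.28. With 1 library left out Neurod4 ran from -0.53 (without HT 1) to -0.25 (without WT 4). Neurod1 ran from -0.25 (without WT 2) to -0.019 (without HT 5). Marker lists that share genes with it lay the same way. Neurogenic precursor markers (Neurog2, Insm1 and Neurod1 among them) had 6 of 6 below 0, with summed levels of 21236 to 42588 normalised counts in HT and 34899 to 39903 in WT, and cerebellar granule lineage markers (Atoh1 and Neurod1 among them) had 6 of 6 below 0, with 5008 to 8912 in HT and 6828 to 8698 in WT. None of these markers had an unadjusted p under 0.05, and their part in the values of the proneural factors was not tested. For the granule lineage list HT 5 had a mean log2 deviation of -0.90, against -0.24 to 0.52 in the other libraries. No role list held a gene that passed the adjusted threshold.

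**Figure D5:**
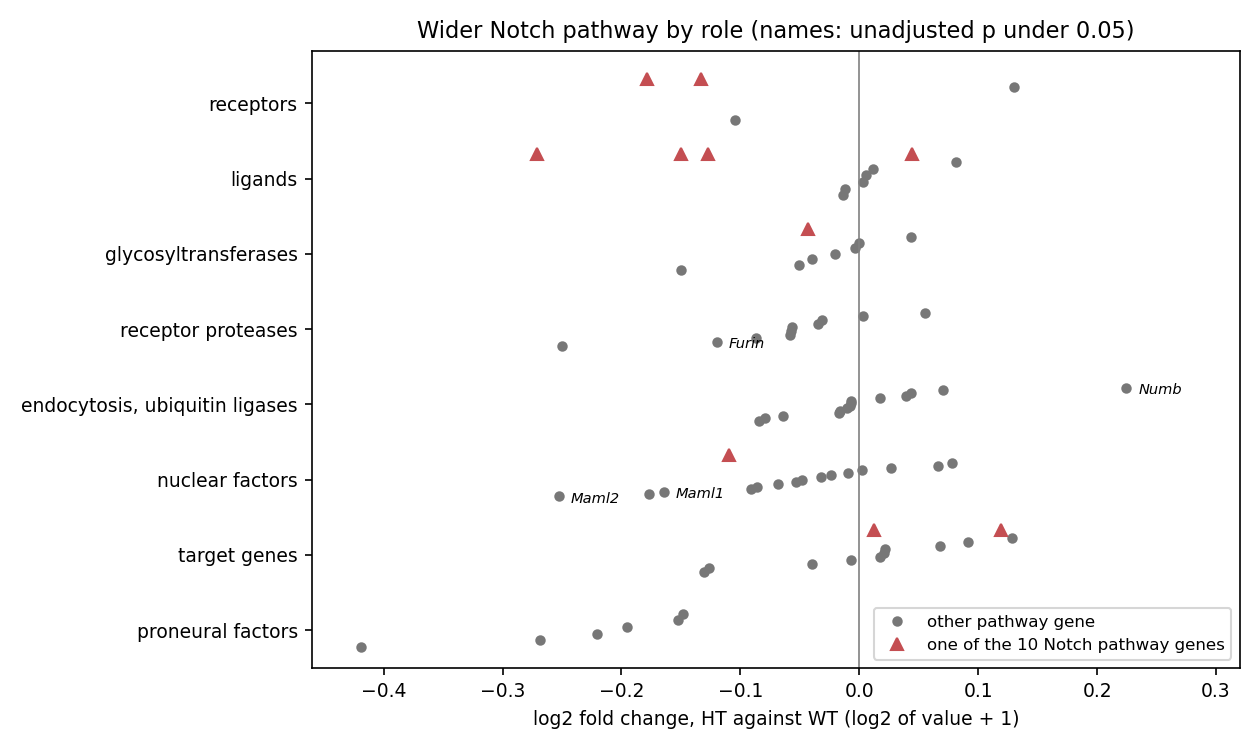
Log2 fold change of HT against WT (horizontal axis) for the 70 further pathway genes (grey) and the 10 Notch pathway genes (red triangles) by role, with names at an unadjusted limma p under 0.05 among the grey points. All 6 proneural factors lie to the left of 0, and targets lie on both sides.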

How the data were processed

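Values came from 1 table of 18444 genes by 10 libraries. Per the study's methods and the labels, the authors ran Salmon 1.1.0 on GRCm38 with GC bias correction, imported gene estimates with tximport and divided them by DESeq2 1.30.1 size factors, so the deposited signal is a normalised read count. The strand setting is not given in the sources used here. Whole reads could not be recovered, and count tests were not run. Values were tested as log2(value + 1) with limma 3.58.1 in R 4.3.3 (trend, robust, genes with a mean of at least 10, Benjamini-Hochberg over 17020 genes, threshold 0.05). In the HT against WT simulation on 17020 genes, 82% of 2-fold and 66% of 1.5-fold changes were recovered. Of 16820 unchanged genes in it, 4 were called. Arid1b itself, at a log2 fold change of -0.68 with no overlap between genotypes, did not pass the adjusted threshold in the main fit. The simulated rates therefore cannot be taken as the power of the main fit. Single values were tested by exact permutation over 252 assignments. P values set a difference or a correlation against the variation between these samples, for which litters were not named. Gene models are GENCODE M21. The genes and lists were chosen with earlier results of these data known. Named with a log2 fold change are the 10 genes, Arid1b, core relatives, pathway genes with an unadjusted p under 0.05 and the ends of each role list. For each of the 10, the gene most like it is also named. Alternatives changed the pseudocount, filter, scaling, weights, trend, block and libraries.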

Additional observations from a re-analysis of the deposited data

Results flagged for a closer look

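In 70 groups of 5 libraries (each named gene or ratio in each genotype), the gap of the farthest library was set against the range of its group, and 6 exceeded the 95% critical value of 0.71. Chance flags about 1 in 20 groups, or 3.5 here. None was one of the 10 Notch pathway genes itself. The log2 ratio of Hey1 to Hey2 in HT had a gap of 0.828 of the range through HT 4, at 2.51 against 2.002 to 2.09 in the other HT libraries. Arid1b in HT had a gap of 0.735 through HT 4, at 1505 normalised counts against 2142 to 2372. For Hes1 in WT the gap was 0.808 through WT 1, at 198 against 144 to 155. Aph1c in HT had 0.861 through HT 3 (193 against 99.9 to 113), Gxylt2 in WT 0.816 through WT 3 (253 against 152 to 171) and Dlk1 in WT 0.776 through WT 2 (448 against 316 to 346).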

How the results depend on the processing

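No Notch pathway gene, of the 10 or of the 70 others, passed an adjusted limma p of 0.05 in any of the 22 fits. Over all genes 2 passed with sample weights, 1 with the length and GC trend removed, 2 with that trend removed and HT 4 left out, and 0 to 2 with 1 library left out (2 without HT 4). These were Arid1b and Adamtsl3, which was named after its values were seen. Genes with an unadjusted p under 0.05 numbered 1429 without HT 4, 1280 with sample weights and 1346 with both trend and HT 4 removed, beside 580, and 0 to 3 of the 10 genes. Of 210 alternative values of the 10 genes 201 had the same direction and 9 did not, all for Hey1 and Lfng. Hey1 was at -0.034 with sample weights, -0.023 with trend and HT 4 removed and -0.042 to 0.058 with 1 library left out, and Lfng at -0.17 to 0.039 with 1 left out. Of the 20 other named genes, 25 of 419 values turned. Notch4 turned to -0.11 with weights and -0.11 with trend and HT 4 removed (-0.084 to 0.31 with 1 library left out), Dll4 to -0.0031 with equal totals, -0.033 and -0.0059 likewise (-0.045 to 0.034), Mfng to -0.050 and -0.010 (-0.043 to 0.13), Psenen to -0.00012 with weights (-0.033 to 0.10), Rfng to 0.0072 with equal upper quartiles (-0.036 to 0.042) and Hes1 within -0.088 to 0.053 with 1 left out. The cause was not tested.

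Correlated pairs numbered 5 with the trend removed and 0 with HT 4 also left out, where r was 0.916 for Notch1 with Notch2 (adjusted p = 0.146) and 0.812 for Jag1 with Lfng (adjusted p = 0.174). With 1 library left out 0 to 1 pair passed, at r of 0.829 to 0.940 and 0.847 to 0.958, with fewer arrangements for the permutation test. These alternatives for the pairs were chosen after seeing the data. No ratio passed in any setting.

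Replicate numbers occur in both genotypes, and same-numbered libraries deviated together with r of -0.104 to 0.093. The labels do not call them pairs, and the main fit did not treat them as pairs. Whether same-numbered pups shared a litter or batch was not tested, and these r values cannot decide it. HT 4 correlated best with WT 5 and the others with their own number. With the replicate block 0 genes passed and Dll1 stood at -0.27. With 5 mice a group, differences the size of those of Dll1 or Notch1 could not be told from no difference after adjustment.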

Other observations

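Maml1 in WT spread less than the estimated counting error alone would give. Its 5 WT libraries had an SD of 2.47 normalised counts, where counting its reads alone would give 20.9, a ratio of 0.118, while its HT libraries had an SD of 35.5 and a ratio of 1.83. Among the 10 Notch pathway genes the ratio ran from 1.02 for Hey2 in HT to 5.15 for Notch1 in WT. By library, WT 2 had the highest median deviation of the 10 genes from their means (0.16 on the log2 scale) and WT 5 the lowest (-0.16), so that both ends of the range lay within WT.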
